A study of Mus musculus with 4 samples.

Results

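The Etv2 cells of the E8.0 library were 1588 of its 7577 retained cells, or 21.0% (exact Clopper-Pearson interval 20.05 to 21.9%), and 1588 of the 22625 retained cells of the 4 libraries. A cell was retained with 1000 or more detected genes and at most 10% of its UMIs (unique molecular identifiers, each standing for a captured transcript) from mitochondrial genes. A retained cell was a member when it was chosen by its measured Etv2 count, 2 or more UMIs, with the haemoglobin genes below 5% of its UMIs. The haemoglobin limit removed 7 cells that met the Etv2 limit.

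The study followed the Mesp1 lineage, the descendants of early mesoderm, in mouse embryos from E8.0 to E10.5 (days of embryonic development). All 4 libraries, 1 per stage, came from Mesp1Cre;Rosa26-GFPflox/+ embryos of the Swiss Webster strain, in which Cre made under control of the Mesp1 locus turns on GFP permanently in those descendants. Embryos were pooled and living cells with GFP were sorted before droplet capture. The first 2 stages were dissected as the body's upper part and the later ones as pharyngeal apparatus plus heart, so stage, dissected region and library cannot be told apart. With 1 library per stage there was no test between groups of cells, and every interval given here covers counting error only.

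Etv2 is an ETS family transcription factor that is switched on for a short time in mesoderm as cells enter the blood and endothelial lineages. It acts with the receptor Kdr upstream of Tal1, Lmo2 and Gata2, which form shared complexes in blood and vessel progenitors, and of Fli1 and Erg, the ETS factors that maintain endothelium after Etv2 is gone. Cells at this step are called haemangioblasts or haematoendothelial progenitors, and they arise in the yolk sac, the allantois and the embryo itself.

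The start-proximal sequence of 5 genes that stood high in the members is shown because ETS and GATA factors are the regulators that these cells carry. Each run is the 250 bases before the outermost annotated start in RefSeq (GRCm38.p6, the assembly that mm10 names), written 5′ to 3′ on the gene's strand, and capitals mark the ETS core AGGAAG, the ETS core CGGAAG, the GATA motif AGATAA or the GATA motif TGATAA on either strand.
Tal1 (chr4:115056176-115056425, + strand): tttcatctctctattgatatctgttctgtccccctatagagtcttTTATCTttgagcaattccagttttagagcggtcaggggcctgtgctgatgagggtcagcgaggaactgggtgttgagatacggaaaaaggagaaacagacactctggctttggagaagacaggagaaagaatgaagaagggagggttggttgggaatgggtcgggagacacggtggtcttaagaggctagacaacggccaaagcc
Gata2 (chr6:88193641-88193890, + strand): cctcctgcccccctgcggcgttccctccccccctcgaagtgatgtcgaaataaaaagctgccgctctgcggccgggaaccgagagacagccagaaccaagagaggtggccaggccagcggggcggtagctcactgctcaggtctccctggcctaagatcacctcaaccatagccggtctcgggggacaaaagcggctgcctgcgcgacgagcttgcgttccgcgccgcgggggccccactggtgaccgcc
Hhex (chr19:37434591-37434840, + strand): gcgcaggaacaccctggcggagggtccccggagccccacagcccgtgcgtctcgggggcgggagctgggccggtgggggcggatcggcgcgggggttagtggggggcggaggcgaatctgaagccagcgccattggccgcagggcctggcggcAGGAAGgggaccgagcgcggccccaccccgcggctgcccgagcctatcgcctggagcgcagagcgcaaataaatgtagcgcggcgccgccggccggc
Gja4 (chr4:127314040-127314289, - strand): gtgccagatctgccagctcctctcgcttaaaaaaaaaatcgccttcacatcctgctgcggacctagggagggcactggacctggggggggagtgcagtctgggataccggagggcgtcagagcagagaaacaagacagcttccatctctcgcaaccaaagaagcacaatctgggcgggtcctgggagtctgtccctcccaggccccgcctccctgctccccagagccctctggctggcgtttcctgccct
Rhoj (chr12:75308063-75308312, + strand): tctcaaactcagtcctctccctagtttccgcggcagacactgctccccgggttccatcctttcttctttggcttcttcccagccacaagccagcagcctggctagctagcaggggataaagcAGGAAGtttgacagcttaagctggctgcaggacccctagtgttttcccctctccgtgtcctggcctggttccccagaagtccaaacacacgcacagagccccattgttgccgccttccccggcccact
The Hhex run held AGGAAG 97 bases before the start and the Rhoj run held it 128 bases before the start. The Tal1 run held AGATAA on the opposite strand, read here as TTATCT, 205 bases before the start, and the Gata2 and Gja4 runs held none of the 4 motifs. Over 17 RefSeq promoters of 14 genes of endothelial surface and signalling, 11 (64.7%) held an ETS core in this window, and over 13 promoters of 8 genes of the haematoendothelial factor list, 5 (38.5%) did, beside 39.2% of all 32851 promoters of the same length. A GATA motif stood in 2 (11.8%) and 3 (23.1%) of these promoters and in 16.6% of all. These matches describe the letters in the window and are not binding sites.

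The members had a median of 9 Etv2 UMIs (lowest 2, quartiles 3 and 22, highest 115), and 782 of them had 10 or more. Of all retained E8.0 cells, 4795 had no Etv2 UMI and 1187 had 1. Since the members were selected on Etv2, their summed level of 585 CPM (a gene's share of the summed UMIs, scaled to 1000000, with an exact Poisson interval of 578 to 593) against 9.48 CPM in the other 5989 E8.0 cells is a description of the rule. The Etv2 gene (ENSMUSG00000006311) lies at chr7:30633616-30636509 in GRCm38.p6.

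Cells set by genes of other lineages gave the level of Etv2 to read beside this. Of 460 cardiomyocyte cells, set by 20 or more UMIs of Tnnt2, Myl7, Myl4 and Actc1, 5.87% met the Etv2 limit of 2 UMIs, as did 9.01% of 1599 paraxial cells, set by 3 or more UMIs of Tcf15 and Meox1 and fewer than 5 of the 4 cardiac genes. At 10 or more UMIs the shares were 2.61% and 3.88%, beside 10.3% of all retained cells. Median depths were 20602.5 and 21062 UMIs in these cells and 25337 UMIs in the members. After each cell was thinned to 5000 UMIs, 76.7% of the members still had an Etv2 UMI, against 5.87% of the cardiomyocyte cells, 10.51% of the paraxial cells and 8.70% of the 69 haemoglobin cells, which were erythroid cells with 5% or more haemoglobin UMIs. The members held 27 cells (1.70%) that also met the cardiomyocyte limit and 144 (9.07%) that also met the paraxial limit, and a high doublet score marked 186 members (11.7%) and 273 other cells (4.56%). The part of mixed droplets in these overlaps was not tested.

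**Figure D1:**
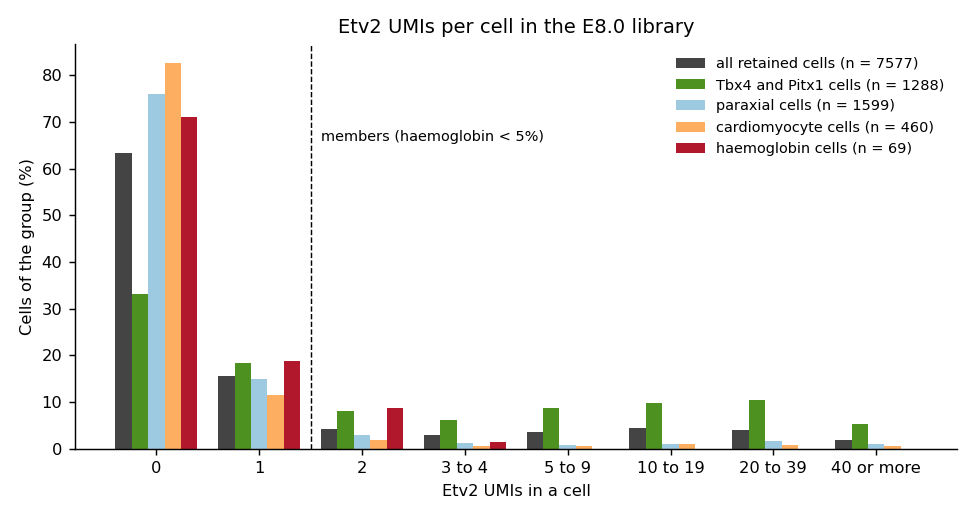
Share of cells (y axis, %) in classes of Etv2 UMIs per cell (x axis) for all retained E8.0 cells and for 4 groups set by other genes, with the Etv2 limit of a member as a dashed line. At 10 or more UMIs lay 25.6% of the cells with Tbx4 and Pitx1 UMIs, 3.88% of the paraxial cells, 2.61% of the cardiomyocyte cells and none of the 69 haemoglobin cells.

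The other markers of the label, Tal1 and Lmo2, were both detected in 808 of the 1588 members (50.9%, 48.4 to 53.4%) and in 4.61% of the other cells, 3.91% of the cardiomyocyte cells and 4.32% of the paraxial cells. The share was larger at each higher class of the Etv2 count. Both genes were detected in 17.0% of members with exactly 2 Etv2 UMIs, in 25.2% with 3 to 4, in 54.5% with 5 to 9 and in 70.7% with 10 or more. The members just inside the limit were thus in large part cells without the other 2 markers, and 38.1% of them had a UMI of either gene, beside 17.3% of cells with no Etv2 UMI. On the other side of the limit, 1174 cells with 1 Etv2 UMI had Tal1 at 7.91 CPM and Kdr at 40.2 CPM, against 21.5 and 78.6 CPM in the 318 members with 2. Neither gene is particular to progenitors, since the haemoglobin cells had Tal1 at 101.4 CPM and Lmo2 at 272 CPM.

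Against all other E8.0 cells, the members were higher in the transcription factors of blood and vessel progenitors and in most endothelial surface genes, and lower in the genes of contracting heart muscle. Of 7395 genes kept (50 or more UMIs over both groups and 10 CPM or more in either), 202 (2.73%) were at least 2-fold higher and 160 (2.16%) at least 2-fold lower, with a median log2 ratio of 0.00. With members limited to 10 or more Etv2 UMIs, a limit chosen after the values were seen, the counts were 270 and 236, and with the limit at 1 UMI they were 135 and 58, so that the higher genes made up 69.9% of those past 2-fold in place of 55.8%. Without the filter on low counts they made up 68.0%.

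Of the 15 haematoendothelial factors, 12 were kept, 11 were at least 2-fold higher and none lower, with a median log2 ratio of 3.05. Tal1, a basic helix-loop-helix factor required for all blood, stood at 96.3 CPM (93.4 to 99.3) in the members and 8.02 CPM in the other cells, 12.0-fold. Lmo2, the adaptor that bridges Tal1 and GATA factors, stood at 161 CPM against 26.6 CPM, and Gata2, its zinc finger partner, at 26.3 CPM against 2.64 CPM. Hhex, a homeobox factor of early endothelium and liver, had the highest ratio after Etv2 among genes at 50 CPM or more, 152 CPM against 6.41 CPM or 23.7-fold. The SoxF factors of endothelium were all higher, Sox7 18.7-fold, Sox18 12.5-fold and Sox17 8.76-fold. Fli1 was 7.79-fold higher (90.5 against 11.6 CPM), while the related Erg reached only 7.54 CPM in the members, under the limit for being kept.

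Detection per cell followed the same order. Tal1 had a UMI in 58.5% of the members, 7.45% of cells without Etv2 and 7.83% of cardiomyocyte cells, and after thinning the shares were 31.4%, 2.42% and 3.48%. For Hhex they were 60.5%, 8.86% and 12.2%, and for Gata2 37.8%, 3.90% and 5.87%. Each of these factors lay above the cardiomyocyte share in the members. The cardiomyocyte cells held 27 members, and 12.6% of them had a high doublet score, so their share is not a background free of Etv2 cells.

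All 19 of the 20 endothelial surface and signalling genes that were kept were at least 2-fold higher, with a median log2 ratio of 2.42. Kdr, the main VEGF receptor and a mark of mesoderm on its way to blood and vessel, was detected in 88.4% of the members and stood at 219 CPM against 27.7 CPM. Its decoy relative Flt1 stood at 52.2 against 8.74 CPM, and Rhoj and Rasip1, regulators of the small GTPases that shape vessel lumens, at 55.0 against 4.57 CPM and 58.6 against 7.77 CPM. Junction and surface genes of formed endothelium were present at low level, with Cdh5 (VE-cadherin) detected in 18.6% of the members at 14.6 CPM and Pecam1 in 15.9% at 10.7 CPM. Among the genes named by size of ratio were also Gadd45g, a stress- and differentiation-linked gene (173 against 28.2 CPM), Hopx, a homeodomain-only protein (53.4 against 10.8 CPM), and Elk3.

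Of 17 arterial, venous and Notch genes 12 were kept and 2 were at least 2-fold higher, Gja4 (connexin 37, 13.1-fold) and Jag1 (a Notch ligand, 2.57-fold), and Nr2f2, a venous and mesenchymal nuclear receptor, was lower at 30.7 against 62.6 CPM. The BMP response genes and the ETS factors outside the endothelial list had none past 2-fold of 5 kept in each. Of the S phase and G2/M lists, 12 of 12 were kept in each with none past 2-fold, and their medians were -0.01 and 0.04. Cdk1, the mitotic kinase, stood at 288 CPM in the members and 196 CPM in the other cells. Other G2/M genes were mixed, with Plk1 at 97.3 against 79.7 CPM, Cenpe at 88.1 against 77.3 CPM, Cenpf at 184 against 211 CPM and Mki67 at 78.6 against 77.3 CPM. By Etv2 count Cdk1 stood at 189.9 CPM in cells without Etv2, 232 CPM at 2 UMIs and 322 CPM at 10 or more.

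Of 13 cardiac genes, 12 were kept and 8 were at least 2-fold lower, with a median of -1.57. Ttn, the giant sarcomere spring, stood at 10.3 against 64.2 CPM and Tnnt2 (cardiac troponin T) at 24.4 against 140.0 CPM. Of the transcription factors in this list some were closer, with Gata6 and Isl1 within 2-fold. Others were past 2-fold lower, among them Mef2c (22.5 against 62.0 CPM) and Gata5 (13.2 against 26.9 CPM). Of 10 paraxial and head mesoderm genes, 4 of the 9 kept were lower, among them Meox1 and Tcf15 of the somites and Tbx1 of the pharyngeal mesoderm (16.7 against 39.6 CPM). Of the nascent mesoderm genes, 5 of 8 kept were lower, Pdgfra (18.4 against 48.4 CPM), Lhx1, Fgf8, Lefty2 and Nodal, and Evx1 was higher. Of 12 allantois and posterior genes, 11 were kept, 4 were at least 2-fold higher and 1 lower. Of 16 blood factors and surface genes 4 were kept, 1 higher and 2 lower. The 4 globin genes kept of 7 were lower (median log2 ratio -2.11), a direction that the rule favours, since its haemoglobin limit leaves the 69 haemoglobin cells among the other cells. Without those cells the median was -0.96, and Hbb-y alone of the 4 was past 2-fold. Of 12 endoderm, ectoderm and neural crest genes 2 were kept and 1 was lower. None of the 6 macrophage markers was kept, and each stood at or below 0.216 CPM in the members, with C1qb at 0.

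**Figure D2:**
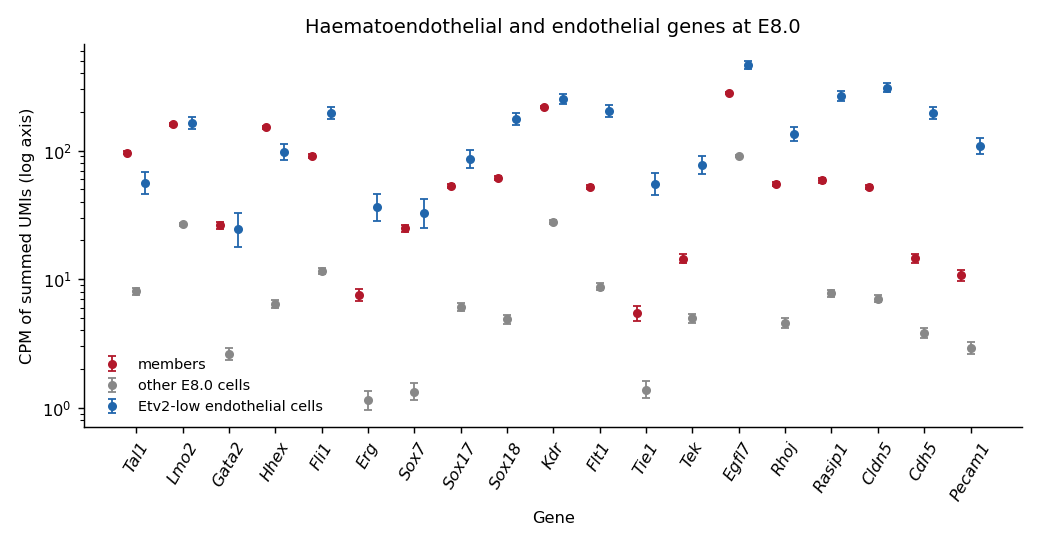
Level of 19 genes (CPM of summed UMIs, log axis) in the members, the other E8.0 cells and the Etv2-low endothelial cells, with exact Poisson intervals as bars. Every gene lay higher in the members than in the other cells, and from Kdr to Pecam1 the Etv2-low endothelial cells lay highest, whose Cdh5 and Pecam1 values were set by their rule.

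A second contrast set the members beside 96 E8.0 cells that had endothelial transcripts but little Etv2 (at most 1 Etv2 UMI, 3 or more UMIs of Cdh5 and Pecam1 together, haemoglobin below 5%, median 17466.5 UMIs). Lmo2, Gata2 and Kdr were close in level, and the later endothelial genes were lower in the members. Genes of posterior and allantoic mesoderm were higher, as were most kept genes of the nascent and the paraxial and head mesoderm lists. Of 7635 genes kept, 414 (5.42%) were at least 2-fold higher in the members and 682 (8.93%) at least 2-fold lower. The higher genes were 37.8% of those past 2-fold, 52.4% when all cells were thinned to 5000 UMIs and 15.6% with no filter on low counts.

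Lmo2 stood at 161 CPM in the members and 164 CPM in these endothelial cells, Gata2 at 26.3 and 24.4 CPM, and Kdr at 219 and 251 CPM. Tal1 (96.3 against 55.9 CPM) and Hhex (152 against 97.7 CPM) were higher in the members by 1.72-fold and 1.56-fold. In the other direction, 9 of the 15 haematoendothelial factors were at least 2-fold lower in the members and none higher, led among these by Mecom (8.29-fold), Erg (4.82-fold) and Ets1 (4.12-fold). Of the 20 surface and signalling genes 18 were lower and none higher, with a median log2 ratio of -2.19, beside 0.07 over all genes. Cdh5 and Pecam1, which chose the endothelial cells, belong to this list, and without them, a setting chosen after the values were seen, 16 of 18 were lower with a median of -2.07. Tie1, an orphan receptor of the angiopoietin system, stood at 5.43 against 55.4 CPM, and Icam2, an adhesion molecule, at 17.1 against 188 CPM. Dll4, the Notch ligand of arterial tip cells, stood at 3.41 against 43.4 CPM, and Gja5 (connexin 40, arterial) at 0.480 against 20.1 CPM. The gene with the lowest ratio was Lyve1, a hyaluronan receptor of lymphatic and some embryonic vessels, at 0.961 against 91.7 CPM.

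All 11 kept of the 12 allantois and posterior genes were at least 2-fold higher in the members than in the endothelial cells, with a median log2 ratio of 3.30. Phlda2, an imprinted gene active in extraembryonic tissue, stood at 1986 against 109 CPM, Tbx4, a T-box factor of the allantois and hindlimb, at 55.6 against 3.80 CPM, and Hoxa9 at 68.9 against 3.80 CPM. Other lists were higher too. Of the nascent mesoderm genes 5 of 6 kept were higher and 1 lower (median log2 ratio 2.22). Of the paraxial and head mesoderm genes 6 of 7 were higher and none lower (2.21). Of the cardiac genes 4 of 12 were higher and 1 lower (0.76). The 2 kept endoderm, ectoderm and neural crest genes were higher. Haemoglobin genes were lower in the members than in the endothelial cells by the main setting (Hba-x 180 against 831 CPM), a direction that turned when cells of high doublet score were removed (log2 ratio of Hba-x 1.92 in place of -2.21).

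Within the members, some genes were highest at the highest Etv2 counts and others at intermediate counts. Tal1 stood at 21.5, 39.4, 77.9 and 142 CPM in members with 2, 3 to 4, 5 to 9 and 10 or more Etv2 UMIs, and Hhex at 27.3, 59.95, 135 and 225 CPM. Kdr stood at 78.6, 131, 221 and 290.1 CPM, and Gata2 at 8.86, 14.5, 22.4 and 36.5 CPM. These 4 genes were highest in the class of 10 or more UMIs, each with an interval apart from that of the class below.

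Fli1 reached 121 CPM (112 to 129.8) at 5 to 9 Etv2 UMIs and 107 CPM (102 to 111) at 10 or more. Cdh5 reached 23.7 and then 11.7 CPM, Cldn5, a tight junction protein, 75.8 and then 53.1 CPM, and Erg 12.5 and then 6.85 CPM over the same 2 classes. Pdgfra, a receptor of uncommitted and paraxial mesoderm, ran the other way through every class, from 50.1 CPM in cells without Etv2 to 11.3 CPM at 10 or more UMIs. Median depths of the 4 classes were 23925.5, 23311, 23424 and 26906 UMIs.

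**Figure D3:**
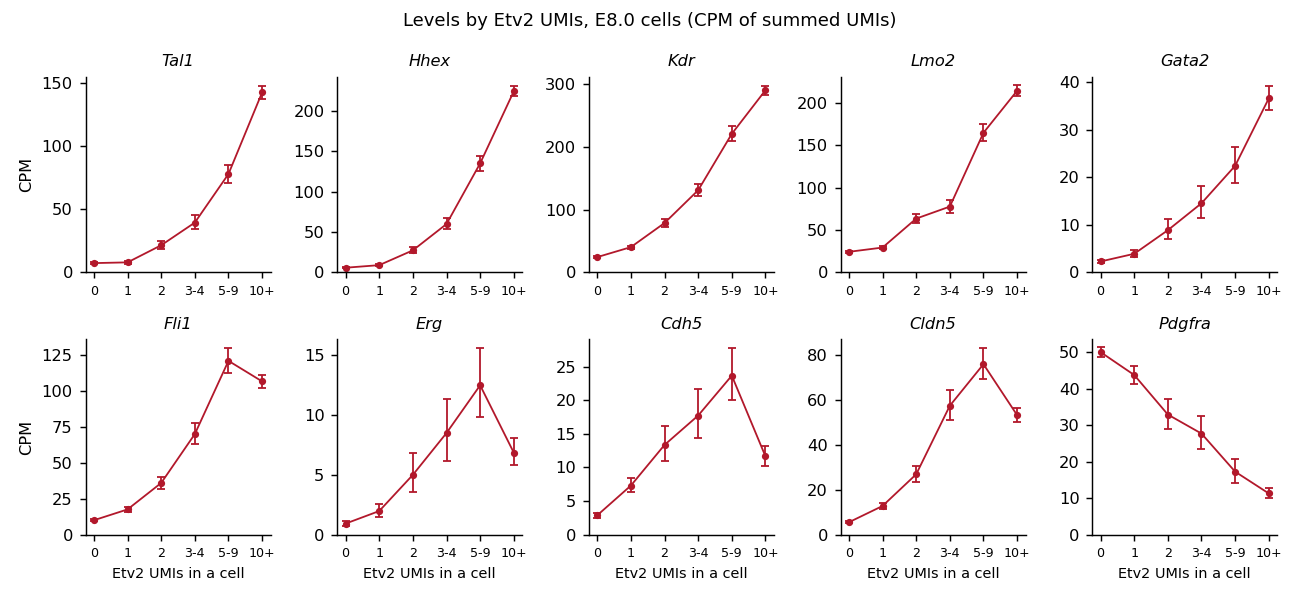
Level of 10 genes (CPM of summed UMIs, y axis from 0) in E8.0 cells by Etv2 UMIs per cell (x axis), with exact Poisson intervals. Tal1, Hhex, Kdr, Lmo2 and Gata2 were highest at 10 or more Etv2 UMIs, Fli1, Erg, Cdh5 and Cldn5 at 5 to 9, and Pdgfra in cells with none.

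The members were split further by markers of the lineages that follow. A set of 46 (2.90%) had 2 or more UMIs of the blood genes Gata1, Klf1, Runx1, Itga2b and Gfi1b, a set of 439 (27.6%) of the rest had 2 or more of the endothelial genes Cdh5, Pecam1 and Esam, and 1103 (69.5%) had neither. The endothelial-marker set held 12.3% of members with 2 Etv2 UMIs, 37.2% with 5 to 9 and 32.1% with 10 or more. Its members carried more of genes outside the 3 that set it, with Tal1 at 150.2 against 72.7 CPM in the set with neither, Hhex at 279 against 103 CPM, Fli1 at 218 against 36.9 CPM and Erg at 21.0 against 1.55 CPM.

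The 46 blood-marker members, 21 of them with exactly 2 Etv2 UMIs, had Hbb-bh1 (embryonic beta globin) at 6894 CPM over their summed UMIs. Their median haemoglobin share was 0.0189% of UMIs, beside 0.0118% in all members, so the summed level came from a part of these cells. Hbb-bh1 stood at 58.9 CPM in the endothelial-marker members, 61.4 CPM in the members with neither and 139 CPM in the cardiomyocyte cells, of which 12.6% had a high doublet score. Spi1, a factor of myeloid and early blood cells outside the rule of the set, stood at 19.4 CPM in the blood-marker members and at 2.30 and 0.106 CPM in the other sets. A high doublet score marked 17.4% of the blood-marker members and 13.0% of the endothelial-marker members, and its part in these levels was not tested. Ptprc (CD45), the surface mark of mature blood cells, had no UMI in any member.

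The members also divided by allantoic genes, a split made after values were seen. Tbx4 and Pitx1 together had 2 or more UMIs in 777 members (48.9%), 1 UMI in 154 and none in 657. Of all 1288 retained cells with a UMI of each gene, 48.5% (45.8 to 51.3%) were at 2 or more Etv2 UMIs, beside 9.01% of the paraxial cells. Both genes are known from the allantois and the posterior body, which the label of the dissected tissue does not name.

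The Tbx4 Pitx1 members had Kdr, Hhex and Gja4 but less Lmo2 and Tal1, and little of the later endothelial genes. Lmo2 stood at 98.2 CPM in them, beside 161 CPM over all members, and Tal1 at 73.8 CPM, beside 96.3 CPM. All members include the Tbx4 Pitx1 members, so these differences are not on the same base as those that follow. Kdr stood at 211 CPM in the Tbx4 Pitx1 members and 225 CPM in the members without Tbx4 and Pitx1, Hhex at 140.3 and 154 CPM, Gja4 at 32.1 and 24.5 CPM, and Etv2 itself at 593 and 577 CPM. Emcn (endomucin, of venous and capillary endothelium) stood at 1.13 against 36.6 CPM, Erg at 1.58 against 16.4 CPM, Cldn5 at 12.7 against 100.5 CPM and Fli1 at 51.0 against 143 CPM. The endothelial-marker set held 16.5% of the Tbx4 Pitx1 members (13.9 to 19.3%) and 39.3% of those without (35.5 to 43.1%), while 53.3% and 44.4% had 10 or more Etv2 UMIs.

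Genes that went with Tbx4 and Pitx1 in the members were Phlda2 (3402 against 243 CPM), Hand1, a basic helix-loop-helix factor of extraembryonic mesoderm (184 against 14.9 CPM), Hoxa10 (86.7 against 3.47 CPM), Cdx2, a caudal factor of the posterior axis (167 against 18.9 CPM), and Snai1, a repressor of epithelial genes (86.5 against 14.6 CPM). The Notch ligand Jag1 belonged to them as well (57.6 against 14.2 CPM). In the members without Tbx4 and Pitx1, Tbx1 stood at 30.5 CPM and Meox1 at 67.1 CPM, against 5.77 and 17.2 CPM in those with them.

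A group of 663 cells with a UMI of both Tbx4 and Pitx1 that were not members had Etv2 at 15.2 CPM, set by their rule, and was also formed after values were seen. Between these cells and the Tbx4 Pitx1 members, Tal1 stood at 1.93 against 73.8 CPM, Hhex at 4.18 against 140.3 CPM, Gja4 at 0.965 against 32.1 CPM and Jag1 at 15.4 against 57.6 CPM. Kdr stood at 56.3 CPM in the Etv2-low cells, of which 427 had no Etv2 UMI and 236 had 1. Over all E8.0 cells it stood at 24.3 CPM in those without Etv2 and 40.2 CPM in those with 1 Etv2 UMI. Hand1 (392 against 184 CPM) and Bmp4, a ligand of the allantois and amnion (109.7 against 49.5 CPM), were lower in the members, whereas Cdx2 (184 and 167 CPM) and Hoxa10 (104 and 86.7 CPM) were closer in level. The rules of the groups differed, since the Etv2-low cells needed a UMI of each gene and the members 2 UMIs of both together. In the 625 members with a UMI of each gene, compared after the values were seen, Hand1 stood at 188 CPM, Bmp4 at 48.5 CPM, Cdx2 at 167 CPM and Hoxa10 at 91.6 CPM.

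**Figure D4:**
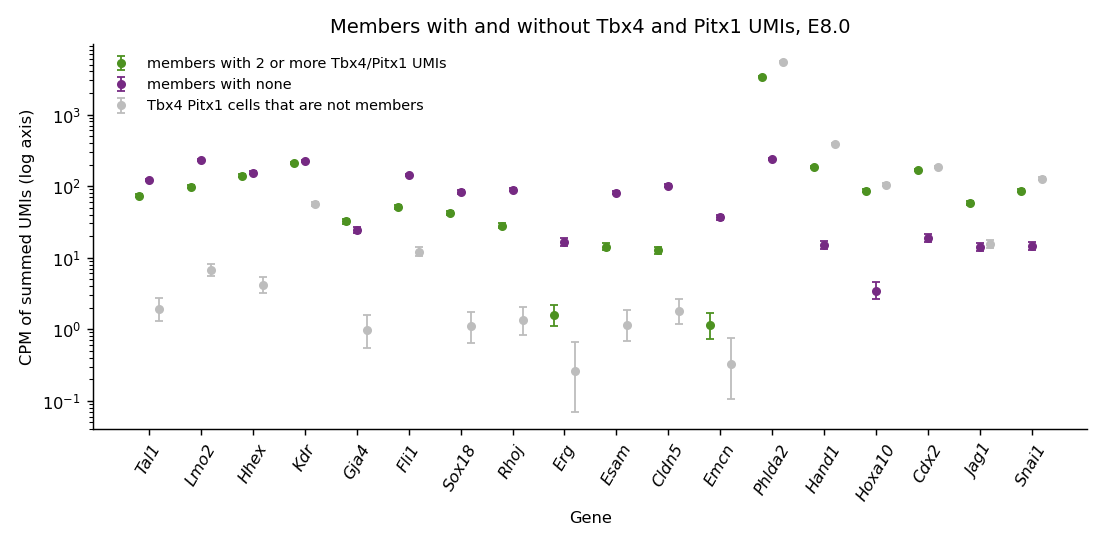
Level of 18 genes (CPM of summed UMIs, log axis) in members with 2 or more UMIs of Tbx4 and Pitx1, in members with none and in Tbx4 Pitx1 cells that were not members, with exact Poisson intervals. From Tal1 to Gja4 both member groups lay high, from Fli1 to Emcn the members without Tbx4 and Pitx1 lay highest, and from Phlda2 to Cdx2 both Tbx4 Pitx1 groups lay above them. Lmo2 and Tal1 stood at 98.2 and 73.8 CPM in the first group, beside 161 and 96.3 CPM over all members.

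By the same rule the later libraries held fewer such cells. They were 402 of 2954 retained cells at E8.25 (13.6%, 12.4 to 14.9%), 147 of 4052 at E9.5 (3.63%) and 127 of 8042 at E10.5 (1.58%), with median Etv2 counts of 6, 6 and 4. At 10 or more Etv2 UMIs the shares from E8.0 on were 10.3%, 5.72%, 1.04% and 0.410%. Median depth of a member ran from 17203 UMIs at E9.5 to 37399.5 at E8.25, so the share at E8.25 was counted at the greatest depth. The E8.0 library shared 41, 49 and 88 cell barcodes with the E8.25, E9.5 and E10.5 libraries, among them 13, 11 and 16 barcodes of members.

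**Figure D5:**
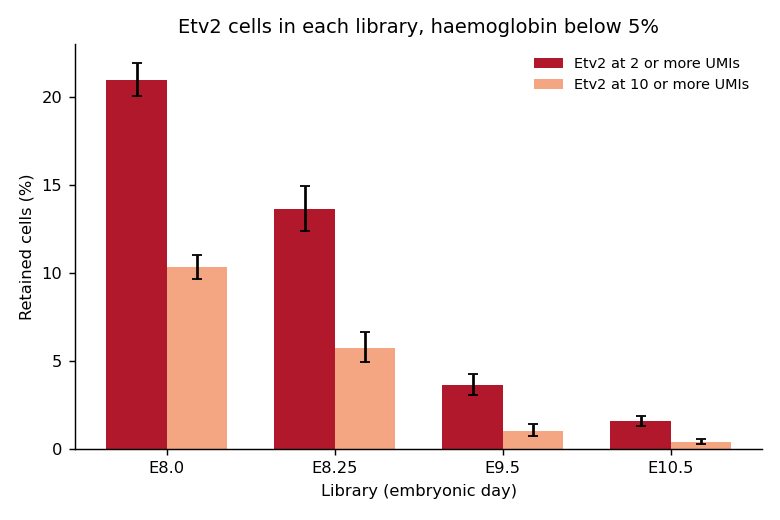
Share of retained cells (y axis, %) that met the Etv2 rule at 2 or more and at 10 or more UMIs in each library (x axis), with exact Clopper-Pearson intervals. At 2 or more UMIs the share was 21.0% in the first library and 1.58% in the last.

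The members of E8.0 and E8.25 had similar levels of most haematoendothelial genes, while Tbx4, Hoxa9 and Hoxa10 were at or near 0 at E8.25 and Phlda2 stood at 1986 against 108 CPM. Over the other cells of these libraries, Tbx4 stood at 17.9 against 0 CPM and Phlda2 at 1175 against 212 CPM. Of 7436 genes kept, 218 (2.93%) were at least 2-fold higher in the E8.0 members and 175 (2.35%) at least 2-fold lower. Of those past 2-fold, 55.5% were higher, against 24.9% with no filter on low counts. Among 12 kept haematoendothelial factors only Sox18 passed 2-fold (61.0 against 26.7 CPM), and among 19 surface and signalling genes only Emcn (15.9 against 50.6 CPM). Tal1 stood at 96.3 and 95.2 CPM, Hhex at 152 and 125 CPM and Kdr at 219 and 148 CPM.

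Of the allantois and posterior genes 8 of 11 kept were at least 2-fold higher at E8.0 and none lower, with a median log2 ratio of 4.64. Tbx4 had 2315 UMIs in the E8.0 members and none in those of E8.25, so it was at least 296-fold higher (against 3 counts over the group). Hoxa9 stood at 68.9 against 0.25 CPM and Cdx2 at 102 against 3.38 CPM. Cells outside the members differed in the same direction, with Hoxa10 at 15.7 against 0 CPM and Cdx2 at 47.8 against 3.75 CPM. Only 5 members at E8.25 (1.24%) had 2 or more UMIs of Tbx4 and Pitx1 together. Gja4 (31.2 against 5.20 CPM) and Jag1 (40.7 against 6.13 CPM) were higher at E8.0 as well. In the other cells they stood at 2.37 against 2.18 CPM and 15.8 against 8.55 CPM. Of the cardiac genes, 6 of 12 kept, among them Myl7 (101 against 45.8 CPM), were at least 2-fold higher at E8.0 and none lower. Of the BMP response genes, 2 of 5 kept, among them Smad7 (35.8 against 7.95 CPM), were higher and none lower. The other cells had Myl7 at 469 against 139 CPM and Smad7 at 28.5 against 9.30 CPM. Lower at E8.0 were Tbx1 (16.7 against 64.2 CPM), Arg1, an arginine-degrading enzyme (41.7 against 136 CPM), and all 5 kept globin genes. Globins were lower at E8.0 in the other cells as well, with Hba-x at 763 against 7661 CPM and Hbb-y at 51.6 against 2397 CPM. Tbx1 stood at 39.6 against 50.3 CPM in those cells.

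At E9.5 and E10.5 the few members carried more transcripts of formed vessels. Cdh5 stood at 14.6, 18.1, 67.1 and 81.4 CPM over the 4 stages, and Cldn5 at 52.0, 82.1, 262 and 456 CPM. Tal1, at 96.3, 95.2, 106 and 91.3 CPM, and Hhex, at 152, 125, 147 and 146 CPM, stayed in a narrower range. Other factors of the same list did not, with Lmo2 at 161, 192, 375 and 368 CPM, Elk3, an ETS factor, at 59.5, 64.2, 121 and 162 CPM, and Lyl1, a relative of Tal1, at 16.3, 15.8, 32.1 and 61.4 CPM. Some of these genes also rose in the other cells, with Cdh5 at 3.84, 5.36, 8.85 and 11.5 CPM and Cldn5 at 7.05, 8.78, 12.5 and 25.4 CPM. Elk3 stood there at 8.38, 9.46, 15.5 and 31.5 CPM. In the same cells Lyl1 stood at 3.22, 22.0, 5.82 and 24.7 CPM, and Lmo2 at 26.6, 40.5, 20.1 and 26.7 CPM. The endothelial-marker set made up 27.6%, 28.9%, 44.2% and 51.2% of the members from E8.0 to E10.5.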

How the data were processed

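Cells of 4 libraries (10x Genomics 3′ version 2 kit) were analysed from the raw UMI counts per gene and cell that the authors deposited. Per the submitters' processing notes and the labels, these were made with Cell Ranger 3.1.0 on mm10, and no normalised values were used. The E8.0 file held 7581 cells with 168407965 UMIs over 27998 genes. Filters and groups are given with the results. UMIs were summed over the cells of a group and divided by their total (CPM), and log2 ratios of CPM were described as past 2-fold, with no test, since cells are not replicates. A gene at 0 in a group was set to 3 counts for its ratio. Exact Poisson intervals for CPM, conditional binomial intervals for ratios and Clopper-Pearson intervals for shares were at 95% and cover counting error only. Thinning drew 5000 UMIs per cell without replacement. Doublets were scored with Scrublet (scanpy 1.11.5), and the 459 highest E8.0 scores were removed only as an alternative, at an assumed rate of 0.8% per 1000 cells. The ratio of summed counts was tested on simulated data. The members, the 15 gene lists (184 genes) and the groups were chosen with earlier results of these data known. A single gene of the lists is counted with its list and not reported here by name. Genes are named from those lists and from the 15 highest and 10 lowest ratios to the other cells, 10 and 10 to the endothelial cells and 8 and 8 between E8.0 and E8.25, at 50 CPM or more. TMM factors came from edgeR 4.0.16, with Python 3.11.15, numpy 2.4.6, scipy 1.17.1 and pandas 2.3.3.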

Additional observations from a re-analysis of the deposited data

Results flagged for a closer look

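Prkar2b, a regulatory subunit of protein kinase A, was the only 1 of 6885 genes kept at both early stages that was past 2-fold in opposite directions in the Etv2 cells against the other cells. Its log2 ratio was 1.49 at E8.0 (93.9 against 33.5 CPM) and -1.18 at E8.25 (20.03 against 45.3 CPM). With 1 library per stage the difference was not tested. The haemoglobin cells, 69 at E8.0 and 325 at E8.25, stood at 162 CPM in both libraries, and with these cells left out of the other cells, a setting chosen after seeing the data, the log2 ratios were 1.59 and 0.11 and the directions no longer differed.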

How the results depend on the processing

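The share of Etv2 cells at E8.0 was 36.5% at 1 or more UMIs, 16.8% at 3 or more and 19.7% with high doublet scores removed. With those Etv2 limits it was 31.3% and 9.21% at E8.25, 7.16% and 2.76% at E9.5 and 4.36% and 1.02% at E10.5, and thinned cells with any Etv2 UMI made up 10.8% at E8.25 and 2.05% at E10.5. The order of the 4 stages held in each. Genes lower than in the other E8.0 cells numbered 58 in place of 160 at 1 or more Etv2 UMIs. With no filter on low counts, 3370 were higher and 1584 lower than in the other cells, 1233 and 6671 against the endothelial cells, and 4527 in place of 393 past 2-fold between E8.0 and E8.25. Thinning gave 701 in place of 414 genes higher than in the endothelial cells, whose group then had 96 cells of 5000 UMIs. Shares of members with a UMI were, after thinning, 31.4% for Tal1, 40.5% for Lmo2, 39.6% for Hhex, 59.5% for Kdr, 30.4% for Fli1, 6.61% for Cdh5 and 1.13% for Gata1. Removing high doublet scores turned the ratio to the endothelial cells of Klf1 (log2 1.79), Hba-x (1.92), Hba-a1 (2.27), Hbb-bh1 (2.19) and Hbb-y (0.45) and the globin median (2.06), and the cause was not tested. Of 2927 other values under the alternatives, 2213 kept within their intervals or 0.25 of a list median, 708 moved and these 6 reversed. No paired analysis was possible because each stage had 1 library. One library per stage, an endothelial group of 96 cells and groups set by marker counts limit what can be compared.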

Other observations

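Among members with 10 or more Etv2 UMIs, 157 cells had no UMI of Tbx4 or Pitx1 and were in neither the endothelial-marker nor the blood-marker set, a group formed after values were seen. Etv2, the gene of the rule, stood at 1251 CPM there, at 838 CPM in 126 cells without Tbx4 and Pitx1 that were in the endothelial-marker set, at 939 CPM in 316 Tbx4 Pitx1 cells outside that set and at 901 CPM in 91 within it. Median depths of these groups were 22581, 24613, 28981 and 29244 UMIs, so the same limit of 10 UMIs asks for a higher CPM in the shallower groups. Cxcr4, a chemokine receptor of mesoderm and endothelium, stood at 29.4 CPM in the 157 cells and at 9.26, 6.51 and 7.01 CPM in the others. A high doublet score marked 22.9% of the 157 cells, 8.73% of the 126, 9.18% of the 316 and 12.1% of the 91, and its part in these levels was not tested.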
